A study of Mus musculus with 14 samples.

Results

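The sterol arm of cholesterol synthesis is represented here by 9 enzyme genes, Fdft1, Sqle, Lss, Cyp51, Msmo1, Nsdhl, Ebp, Sc5d and Dhcr7, taken by symbol from a table of 55228 gene symbols. All 9 were found and all 9 passed the filter on low counts, among 11757 tested genes. The cells were mouse epidermal cells of the genotype Lrig1CreER/Rosa-TdTomato, in which a recombinase expressed from the Lrig1 gene switches on a red fluorescent protein, so that their progeny can be traced. They were taken from tail epidermis at the time called 8w pw1, selected by flow cytometry for Sca1, and kept in keratinocyte medium for 1 week. The compared groups were the distal memory region, with 6 libraries, and the Ctrl (non-memory) region, with 8 libraries, both labelled with no treatment. Genotype, sort, time and culture were shared by both groups, and no source used here gives the age of the mice. The descriptions divide the libraries into distal set 1 (2 libraries), distal set 2 (4), control set 1 (6) and control set 2 (2). No label says that libraries of a set are separate animals or cultures, so p-values measure the spread between libraries, which may be technical.

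Cholesterol is made from acetyl-CoA in 2 stretches: the mevalonate arm builds farnesyl diphosphate, and the sterol arm turns it into squalene, closes the rings to lanosterol and trims and reshapes them to cholesterol. In many cells SREBP2, encoded by Srebf2, switches on the genes of both arms together when sterols are scarce. Skin uses the pathway for membranes and for the lipid barrier, and the last intermediate before cholesterol on one branch is also the precursor of vitamin D. In humans, inherited defects of NSDHL and EBP cause skin disorders, and defects of DHCR7 cause Smith-Lemli-Opitz syndrome.

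The 9 members did not move as a unit. Relative to all mRNA, cells of the distal region had more of Fdft1, Lss, Ebp and Dhcr7 and less of Sqle, Cyp51, Msmo1, Nsdhl and Sc5d than cells of the control region. Of 9 members 4 rose and 5 fell (edgeR quasi-likelihood test, Benjamini-Hochberg adjusted p under 0.05), against 24.3% of all tested genes that rose and 24.1% that fell. The median log2 fold change was -0.61 over the members and -0.16 over all tested genes. Features of the libraries move with these counts. Total counts were 2137934 to 4513518 in distal and 4515646 to 7458872 in control libraries, without overlap, and fold changes across all genes followed the GC content of the transcripts. With each library's trend in GC content and transcript length removed, 1 member rose (Ebp) and 2 fell (Sqle and Cyp51), against 10.4% and 8.56% of the genes tested in that fit. In bulk RNA, fewer cells of a type and less RNA per cell cannot be told apart.

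The base composition of the coding sequences is shown because the members' directions followed it. Each line gives 120 bases of coding sequence, the first in-frame window whose GC share is closest to that of the whole coding sequence, from the GENCODE M21 transcript with the longest coding sequence (GRCm38, sense strand). Capitals mark G and C. The windows start at coding base 103 in Msmo1, 247 in Sqle, 172 in Ebp and 58 in Dhcr7, and the GC content of the whole coding sequence is 43.1%, 48.1%, 51.5% and 54.0% in that order.
Msmo1: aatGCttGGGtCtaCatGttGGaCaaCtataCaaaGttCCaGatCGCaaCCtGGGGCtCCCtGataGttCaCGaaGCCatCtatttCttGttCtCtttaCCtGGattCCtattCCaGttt
Sqle: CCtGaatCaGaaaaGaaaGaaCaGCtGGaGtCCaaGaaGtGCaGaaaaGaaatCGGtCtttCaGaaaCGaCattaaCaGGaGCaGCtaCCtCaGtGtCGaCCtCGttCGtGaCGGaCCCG
Ebp: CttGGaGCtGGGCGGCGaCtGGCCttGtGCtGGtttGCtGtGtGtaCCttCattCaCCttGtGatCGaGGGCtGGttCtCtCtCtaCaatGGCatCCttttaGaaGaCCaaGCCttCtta
Dhcr7: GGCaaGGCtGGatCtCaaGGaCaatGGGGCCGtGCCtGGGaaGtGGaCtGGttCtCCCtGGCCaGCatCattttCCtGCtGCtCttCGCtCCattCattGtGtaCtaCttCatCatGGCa
The first pair of these genes was lower and the second pair higher in distal cells.

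The entry to the arm and the epoxidation that follows it moved in opposite directions. Fdft1 encodes squalene synthase, which joins farnesyl diphosphate into squalene (chromosome 14, 63145150 to 63179578, minus strand, GRCm38). It had 132, 216 and 284 CPM (read counts relative to library size, scaled by the trimmed mean of M values; lowest, median and highest library) in distal libraries and 96.9, 135 and 179 CPM in control libraries. The groups overlapped, and distal libraries 3 and 4, at 146 and 132 CPM, lay within the control range. Its log2 fold change was 0.60 ± 0.18 (SE; edgeR adjusted p = 0.012), or 1.51-fold. It shares 774 exon bases, 18.3% of its exon length, with Ctsb on the opposite strand, and no source used here says whether reads were counted by strand.

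Sqle encodes squalene epoxidase, a rate-limiting enzyme whose product is the substrate for ring closure (chromosome 15, 59315077 to 59331192, plus strand). It had 208, 268 and 399 CPM in distal libraries and 452, 601 and 669 CPM in control libraries. Every distal library was below every control library, which held for 4 of the 9 members (Sqle, Cyp51, Msmo1 and Nsdhl) and for 5.65% of all tested genes; no member had all distal libraries above all control libraries, against 12.7% of tested genes. Sqle fell the most of the 9 members, at -1.01 ± 0.16 on the log2 scale (SE; edgeR adjusted p = 5.6e-05).

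Lss encodes lanosterol synthase, which folds the epoxide into the first ring-bearing sterol (chromosome 10, 76531588 to 76557138, plus strand). It had 118, 157 and 227 CPM in distal libraries and 96.3, 107 and 134 CPM in control libraries. Only distal library 3 fell within the control range. On the log2 scale Lss was higher by 0.58 ± 0.15 (SE; edgeR adjusted p = 0.0033). An antisense gene overlaps 381 bases, 3.53%, of its exons.

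**Figure D1:**
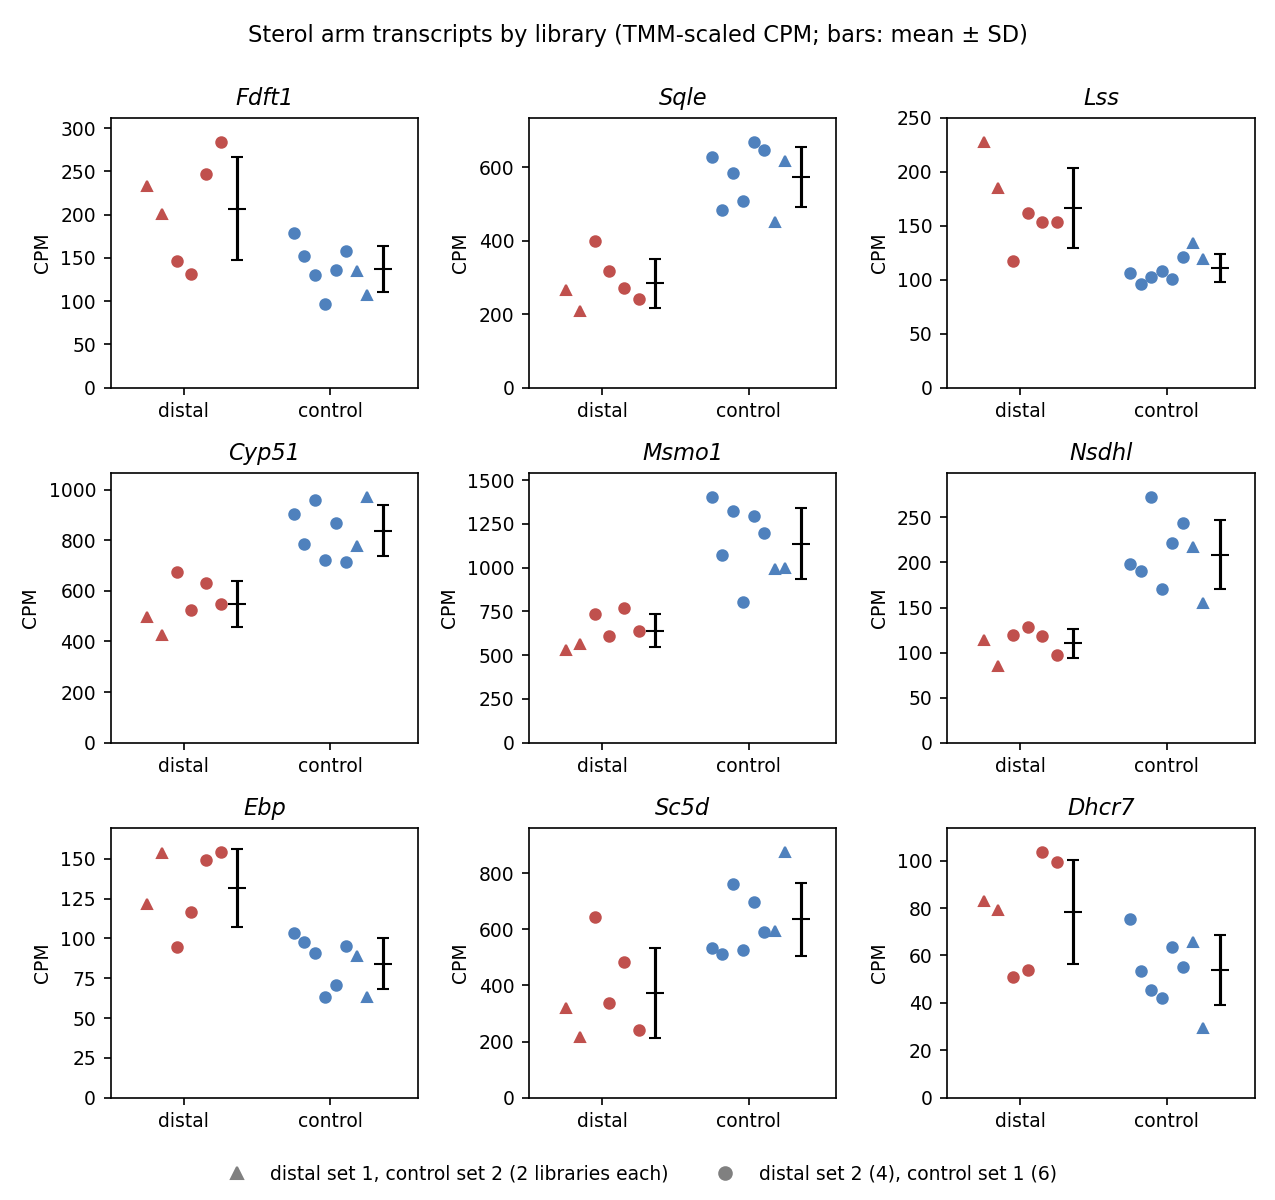
CPM of the 9 members in each distal (red, left) and control (blue, right) library, with one panel per gene and an axis that starts at 0; marker shapes give the sets and black bars the mean ± SD. Distal and control libraries do not overlap for Sqle, Cyp51, Msmo1 and Nsdhl.

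The 3 members that strip methyl groups from lanosterol all fell. Cyp51 encodes the cytochrome P450 that takes off the first methyl group (chromosome 5, 4081145 to 4104746, minus strand). It had 425, 535 and 673 CPM in distal libraries, against 715, 827 and 971 CPM in control libraries, with no overlap. On the log2 scale Cyp51 was at -0.61 ± 0.14 (SE; edgeR adjusted p = 0.0013). Cyp51 shares 166 exon bases, 3.76% of its exons, with Akap9 on the opposite strand.

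Msmo1 encodes the sterol monooxygenase that oxidises the remaining ring methyl groups (chromosome 8, 64718139 to 64733792, minus strand). It was at 529, 624 and 770 CPM in distal libraries and at 805, 1136 and 1403 CPM in control libraries. The groups did not overlap, with control library 4 the lowest of the control libraries. Its log2 fold change was -0.83 ± 0.15 (SE; edgeR adjusted p = 0.00024).

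Nsdhl encodes the dehydrogenase that removes the oxidised carbon after Msmo1 (chromosome X, 72918557 to 72958514, plus strand). It had 84.9, 116 and 128 CPM in distal libraries and 154 (control library 8), 208 and 273 CPM in control libraries. Again no distal library reached the control range. Nsdhl was at -0.92 ± 0.15 on the log2 scale (SE; edgeR adjusted p = 0.0001).

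The last 3 members reshape the sterol rings, and they split. Ebp encodes the isomerase that moves a ring double bond (chromosome X, 8185329 to 8193512, minus strand). It had 94.4, 135 and 154 CPM in distal libraries and 63.3, 89.98 and 103 CPM in control libraries. Only distal library 3 lay below the highest control library. Ebp rose by 0.64 ± 0.16 on the log2 scale (SE; edgeR adjusted p = 0.0032), the largest rise of the 9 members.

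Sc5d encodes the sterol desaturase that makes 7-dehydrocholesterol on one branch (chromosome 9, 42251595 to 42264256, minus strand). It had 215, 329 and 643 CPM in distal libraries and 512, 592 and 875 CPM in control libraries. It was the most variable member in distal cells, with a coefficient of variation of 43.4% there and 20.4% in control cells. Distal library 3, at 643 CPM, lay inside the control range, and the other 5 distal libraries lay below it. Sc5d was at -0.77 ± 0.22 on the log2 scale (SE; edgeR adjusted p = 0.0085).

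Dhcr7 encodes the reductase that turns 7-dehydrocholesterol into cholesterol (chromosome 7, 143823145 to 143848410, plus strand), and it had the lowest CPM of the members. It had 51.1, 80.98 and 104 CPM in distal libraries and 29.5, 54.2 and 75.3 CPM in control libraries. The groups overlapped: distal libraries 3 and 4 lay among the control libraries and the other 4 above them. Dhcr7 rose by 0.54 ± 0.21 on the log2 scale, and its edgeR adjusted p of 0.045 was close to the threshold. Leaving out control library 3, 6 or 8 or distal library 5 or 6 ended that call.

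The order of the enzymes was compared per length, as CPM per kilobase of exon. In distal cells the order was Cyp51 (124 ± 20.5 CPM per kb, SD, n = 6), Msmo1 (104 ± 15.5), Sc5d (76.7 ± 33.3), Ebp (57.0 ± 10.6), Sqle (51.1 ± 12.1), Fdft1 (48.9 ± 14.03), Nsdhl (38.7 ± 5.64), Lss (15.4 ± 3.43) and Dhcr7 (13.5 ± 3.80). Neighbours in that order differed by less than the larger of their SDs, except Nsdhl and Lss. In control cells it was Cyp51 (190 ± 23.0 CPM per kb, SD, n = 8), Msmo1 (185 ± 33.1), Sc5d (131 ± 26.7), Sqle (103 ± 14.7), Nsdhl (73.1 ± 13.5), Ebp (36.4 ± 6.92), Fdft1 (32.3 ± 6.30), Lss (10.3 ± 1.18) and Dhcr7 (9.25 ± 2.52). There the pairs within their spread were Cyp51 with Msmo1, Ebp with Fdft1, and Lss with Dhcr7. Ebp and Fdft1 stood above Sqle or beside it in distal cells and below it in control cells. With the length of the longest transcript, Msmo1 was at 216 CPM per kb in distal and 383 in control cells and came first in both, and Lss came last, at 23.8 in distal and 15.9 in control cells, below Dhcr7 at 27.8 in distal and 19.1 in control cells.

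**Figure D2:**
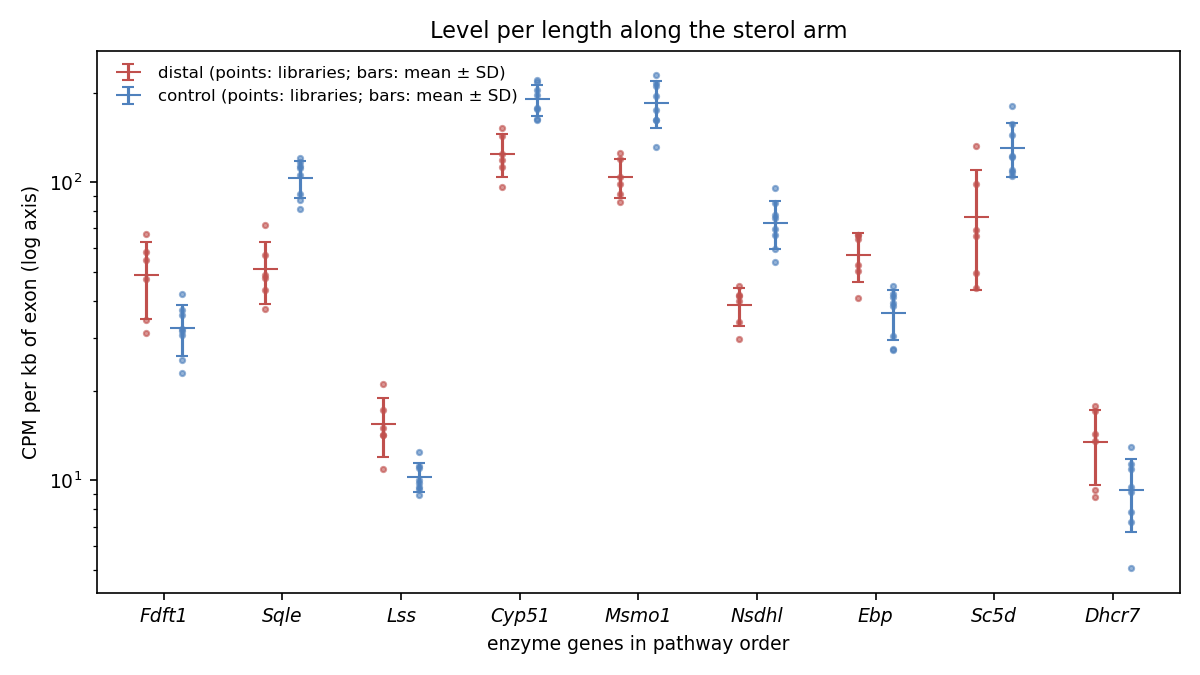
CPM per kb of exon for each member in pathway order, on a log axis; points are libraries and bars the mean ± SD, with distal cells left of control cells. The lowest levels in both regions are those of Lss and Dhcr7, at 15.4 and 13.5 CPM per kb in distal cells and 10.3 and 9.25 CPM per kb in control cells.

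Ratios between successive enzymes within a library do not depend on how libraries are scaled, although they set genes of different GC content against each other. The log2 ratio of Sqle to Fdft1 CPM ran between -0.23 and 1.45 (median 0.16) in distal libraries and between 1.67 and 2.53 (median 2.10) in control libraries. Distal libraries were all lower for that ratio and for Cyp51 over Lss (medians 1.77 in distal and 3.03 in control), and all higher for Ebp over Nsdhl (medians 0.22 in distal and -1.32 in control). Each of these ratios sets a member that fell against one that rose, so they restate that split. The other 5 of 8 successive ratios overlapped. All ratios are as measured, and no share over other gene pairs was taken. Within the demethylation steps the ratios differed little: Msmo1 over Cyp51 had medians of 0.22 in distal and 0.46 in control, and Nsdhl over Msmo1 of -2.66 in distal and -2.40 in control. The ratios were not tested.

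All 5 members that fell had a lower transcript GC content than the 4 that rose. The median over annotated transcripts was, among those that fell, 44.7% (Msmo1), 45.4% (Sc5d and Nsdhl), 48.5% (Cyp51) and 48.7% (Sqle). Among those that rose it was 49.2% (Ebp), 52.0% (Fdft1), 52.1% (Lss) and 52.9% (Dhcr7). Among all tested genes cut into 5 equal groups by GC content, the median log2 fold change was -0.57 in the second group, which holds Msmo1, Nsdhl and Sc5d, -0.17 in the third, which holds Sqle, Cyp51 and Ebp, and 0.50 in the fourth, which holds Fdft1, Lss and Dhcr7. Fdft1, Lss and Dhcr7 lay above 55.0%, 54.1% and 51.5% of the genes of their group, near its middle. Msmo1, Nsdhl and Sc5d lay above 29.9%, 23.2% and 34.1% of theirs. In the third group Sqle lay above 7.8% of genes, Cyp51 above 22.6% and Ebp above 88.2%, so genes of like GC content by this median stood at both ends. The groups and the trend removal rest on that median, short transcripts included. In the transcript with the longest coding sequence, GC content is 46.2% for Cyp51 and 42.9% for Sc5d. The second group spans 44.09% to 47.83%, so by that value Cyp51 falls in it and Sc5d below it. The other members stay in their group. Neither the groups nor the removal was repeated with such values.

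**Figure D3:**
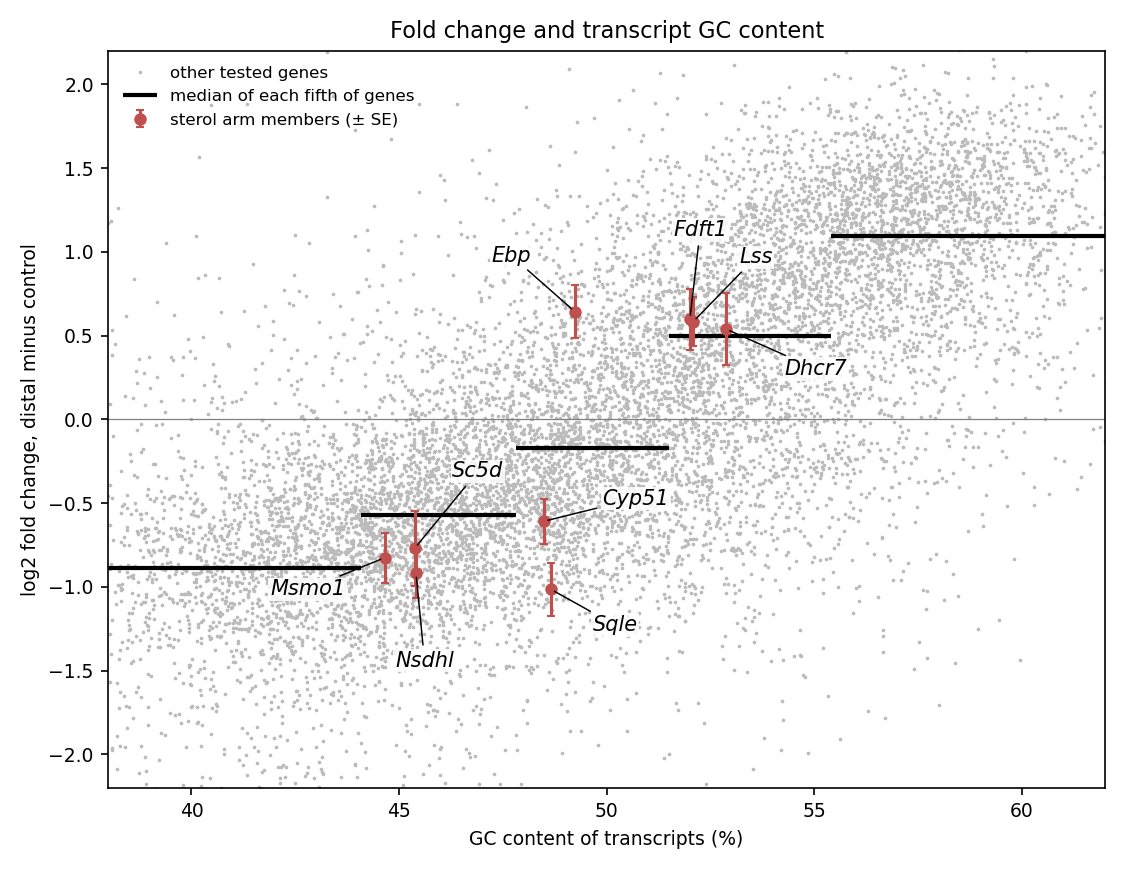
Log2 fold change, distal minus control, against the median GC content of each gene's transcripts; grey points are other tested genes, black lines the medians of 5 equal groups of genes (-0.57, -0.17 and 0.50 in the second to the fourth), and red points the members ± SE. The axes cover the central part of the data, and Sqle, Cyp51 and Ebp stand farthest from the line of their group.

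With the GC and length trend removed, the values moved toward 0 for every member except Ebp. Ebp was then at 0.78 ± 0.15 (SE; edgeR adjusted p = 0.0015), Sqle at -0.66 ± 0.14 (SE; edgeR adjusted p = 0.0032) and Cyp51 at -0.39 ± 0.13 (SE; edgeR adjusted p = 0.042). Lss (0.39, edgeR adjusted p = 0.053), Fdft1 (0.36, 0.13), Nsdhl (-0.32, 0.13), Sc5d (-0.19, 0.51), Msmo1 (-0.19, 0.39) and Dhcr7 (0.09, 0.80) did not pass. Per library, Ebp was the member whose distal values, -0.05 to 0.72 on the log2 scale around its mean, all lay above its control values, -0.69 to -0.06. Over all genes, the distal values lay all above the control values for 4.32% and all below for 2.53% after the removal. For the other 8 members the regions overlapped. With counts summed per set, the 4 members that rose kept their calls and Sqle (-0.85, edgeR adjusted p = 0.031) and Nsdhl (-0.74, edgeR adjusted p = 0.041) were the 2 that fell, against 18.8% and 11.7% of tested genes that rose and fell in that fit. With both the trend removed and counts summed per set, 0 of 9 members passed in edgeR, and 1 was higher and 2 were lower at an unadjusted p under 0.05. Over all genes 1.07% rose and 1.62% fell at the adjusted threshold in that fit. No share of all genes at an unadjusted p was taken for it or for the fits below, so the unadjusted counts have no share beside them. Some fits on fewer libraries also held fewer calls, but not all. Without distal set 2, which leaves the 2 libraries of distal set 1, the members stayed at 4 higher and 5 lower. Over all genes 2622 rose and 2129 fell there. The 10 libraries over 4000000 counts hold distal libraries 3 and 4 and all control libraries. Among them Sqle, Msmo1 and Nsdhl fell and 0 members rose in edgeR, against 6.98% of all genes that rose and 4.63% that fell. At an unadjusted edgeR p under 0.05, too, 0 members rose. When every library was thinned to the depth of the shallowest, the members' calls were the same 4 higher and 5 lower. Without control set 1, which leaves 2 control libraries, Sqle and Nsdhl fell and 0 rose in edgeR, with 2 higher and 5 lower at an unadjusted p under 0.05. Over all genes 10.1% rose and 9.47% fell there at the adjusted threshold. Without distal set 1, Sc5d and Dhcr7 did not pass, and 20.9% of all genes rose and 14.2% fell. Sqle passed in each of these fits except the one with both the trend removed and counts summed per set.

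**Figure D4:**
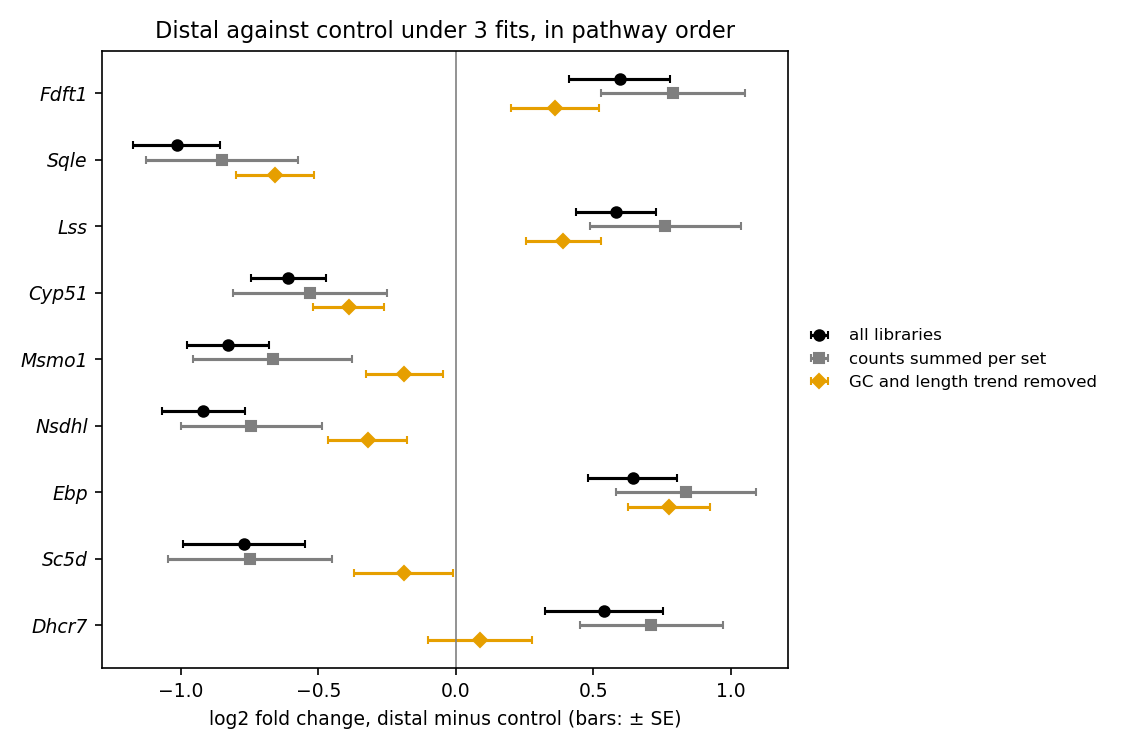
Log2 fold change ± SE of each member, distal minus control, in pathway order, with all 14 libraries (black), with counts summed per set (grey) and with the GC and length trend removed (orange). No member changes sign among the 3 fits, and Ebp, Sqle and Cyp51 pass with the trend removed, at 0.78, -0.66 and -0.39.

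The members were compared between the sets of a region, because the sets are nested in the regions and cannot be separated from them. In control cells the log2 difference of set 2 from set 1 was between -0.25 (Msmo1) and 0.28 (Sc5d), and in distal cells between -0.50 (Lss) and 0.67 (Sc5d). No member passed. Across all genes 0 of 11757 passed in each region, 0% in both, with edgeR and with limma-voom, and at an unadjusted p under 0.05 there were 969 genes (8.24%) in control and 921 (7.83%) in distal cells. Lss was among those 921 genes, lower in distal set 2, with an edgeR p of 0.022 unadjusted and an edgeR adjusted p of 0.61. In distal cells the 5 members that fell had higher means in set 2, with 426 CPM for Sc5d there and 268 CPM in set 1, and the 4 that rose had lower ones. Some of these log2 differences were smaller than their SE, among them Dhcr7 (-0.08 ± 0.36), Ebp (-0.10 ± 0.26) and Fdft1 (-0.10 ± 0.30). The slope of log2 CPM deviation on GC content was 0.93 and 0.76 per 10 percentage points in distal set 1 and 0.23 to 0.90 in distal set 2. Its part in the pattern was not tested, and no share over all genes was taken.

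Across the 14 libraries, with the mean of each region taken off, median correlations were higher within the members of a direction than across directions. The median Pearson correlation of log2 CPM was 0.55 over the 10 pairs of members that fell (0.27 to 0.82). It was 0.47 over the 6 pairs that rose (0.19 to 0.85) and -0.30 over the 20 pairs across, which ran between -0.58 and 0.37 with 6 above 0. Among those that rose, Fdft1, Ebp and Dhcr7 correlated with each other at 0.74 to 0.85, and Lss with each of them at 0.19 to 0.20. Over all pairs of 9114 tested genes with an average log2 CPM of at least 3 the median was 0.00. The pairs share libraries, depth and the GC trend: with that trend removed the 3 medians were 0.19, 0.40 and -0.14. The slope of log2 CPM deviation on GC content was 0.23 to 0.93 per 10 percentage points in distal libraries, lowest in libraries 3 and 4, and -0.61 to -0.34 in control libraries. The part of that slope in the correlations was not tested further. By the rule for likeness, the genes closest to the mean profile of the members within regions were Pcmt1 (Pearson r = 0.92 over 14 libraries), 9530068E07Rik (0.87), Klk10 (0.86), Iars2 (0.85) and Ubash3b (0.82). Of these Klk10, which encodes a kallikrein-related protease, was at -0.50 (edgeR adjusted p = 0.045) and at -1.19 with the trend removed (edgeR adjusted p = 0.00059). As measured, it did not pass with sets summed (-0.29, edgeR adjusted p = 0.45), upper-quartile scaling, limma-voom, the stricter filter or thinning, or when any of 11 of the 14 libraries was left out.

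**Figure D5:**
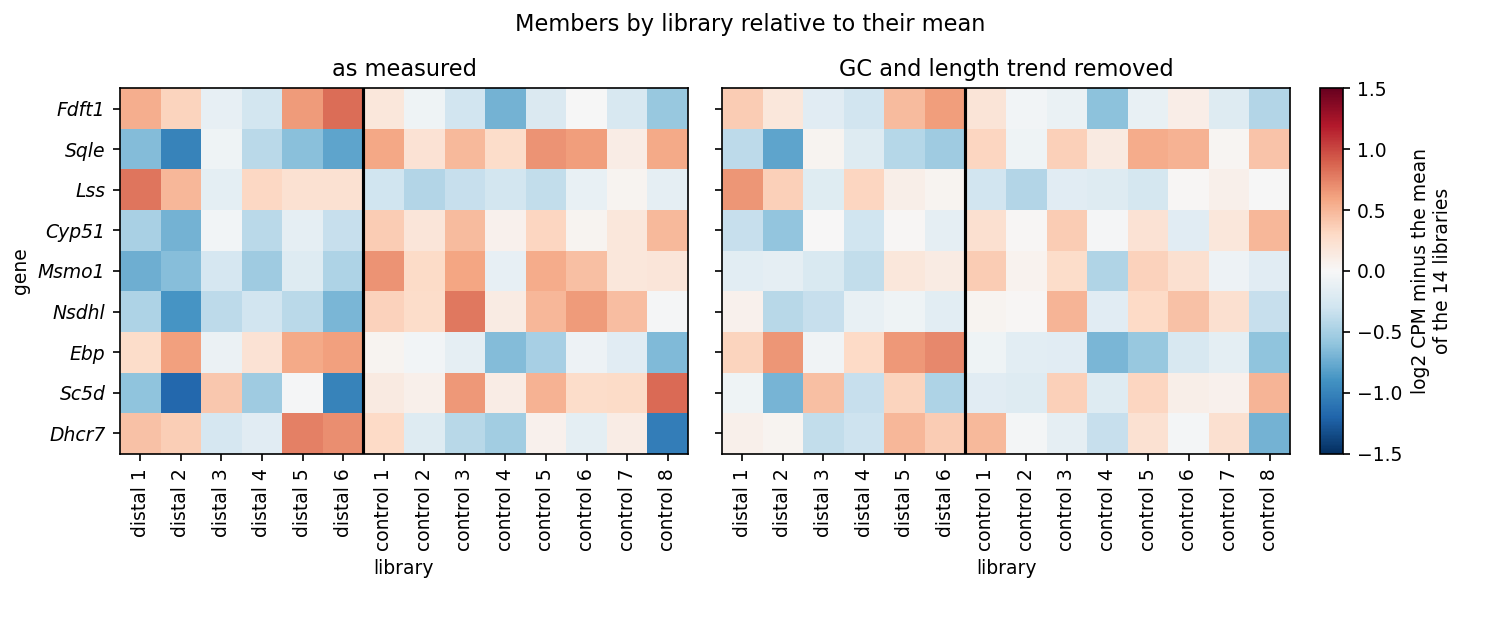
Log2 CPM of each member in each library relative to its mean over the 14 libraries, as measured (left panel) and with the GC and length trend removed (right panel), with distal libraries left of the black line. As measured, Sqle, Cyp51, Msmo1 and Nsdhl separate the regions; after the removal Ebp is the member whose regions do not overlap.

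Promoter sequences were searched because members of the arm are known SREBP2 targets and because SREBP acts beside the CCAAT-binding factor NF-Y. RefSeq windows (GRCm38.p6, 250 bases before to 50 after an annotated start) matched 7 of 9 members: Lss, Cyp51, Msmo1, Nsdhl, Ebp, Sc5d and Dhcr7. The searched letters were TCACNCCAC, a core of the sterol regulatory element, CCAAT and the Sp1 box GGGCGG, on both strands. CCAAT was found in a window of all 7, for Dhcr7 in window 3 of 3, and in 37.4% of all 32851 windows. GGGCGG was also found in all 7, and in 35.7% of all windows. TCACNCCAC was found in 0 of the 7 and in 1.24% of all windows, which says only that these letters are not there. The windows of Msmo1 (chr8:64733529-64733828, minus strand) and Nsdhl (chrX:72918271-72918570, plus strand), which fell, and of Ebp (chrX:8193463-8193762, minus strand), which rose, are shown 5′ to 3′, with CCAAT or its reverse complement in capitals.
Msmo1: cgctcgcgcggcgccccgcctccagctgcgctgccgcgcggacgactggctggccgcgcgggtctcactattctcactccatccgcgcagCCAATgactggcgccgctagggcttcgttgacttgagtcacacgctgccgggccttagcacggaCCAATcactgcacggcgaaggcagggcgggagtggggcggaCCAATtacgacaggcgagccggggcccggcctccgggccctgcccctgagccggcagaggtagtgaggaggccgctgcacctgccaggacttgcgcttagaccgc
Nsdhl: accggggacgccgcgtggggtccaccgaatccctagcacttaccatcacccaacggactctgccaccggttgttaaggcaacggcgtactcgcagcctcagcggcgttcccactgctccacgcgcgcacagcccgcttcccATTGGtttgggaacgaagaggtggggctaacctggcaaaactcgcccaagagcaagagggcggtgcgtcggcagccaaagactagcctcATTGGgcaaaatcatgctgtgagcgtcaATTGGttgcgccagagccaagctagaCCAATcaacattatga
Ebp: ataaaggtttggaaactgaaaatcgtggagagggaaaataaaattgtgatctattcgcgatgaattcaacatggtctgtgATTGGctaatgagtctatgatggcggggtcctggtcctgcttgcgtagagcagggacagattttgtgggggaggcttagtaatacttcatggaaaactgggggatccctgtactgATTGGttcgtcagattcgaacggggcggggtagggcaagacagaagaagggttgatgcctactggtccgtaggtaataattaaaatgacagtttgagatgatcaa
They hold 3, 4 and 2 such boxes, so the boxes occurred in members of either direction.

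Other genes of sterol synthesis split too. Their counts stand beside shares over all genes of 24.3% higher and 24.1% lower as measured, and of 10.4% and 8.56% with the trend removed. Of 5 tested enzymes of the sterol arm outside the 9, 1 rose and 2 fell. Lbr, a nuclear envelope protein that is also a sterol reductase, fell, at -1.104 on the log2 scale (edgeR adjusted p = 8.9e-06) and was at -1.12 with the trend removed (edgeR adjusted p = 3.9e-05). Hsd17b7, the reductase that acts after Nsdhl, was at -0.42 (edgeR adjusted p = 0.0496) and did not pass with the trend removed (-0.24, edgeR adjusted p = 0.32), with sets summed (-0.10, edgeR adjusted p = 0.80), with upper-quartile scaling or with limma-voom. The demethylation scaffold gene Erg28 at 0.41 did not pass (edgeR adjusted p = 0.055) but did with the trend removed, at 0.83 (edgeR adjusted p = 0.0038). Of 8 mevalonate arm genes 4 rose and 2 fell. The kinase genes Mvk (1.64) and Pmvk (0.72), the decarboxylase gene Mvd (1.41) and the farnesyl diphosphate synthase gene Fdps (1.44) rose, and their transcripts have a GC content of 59.3%, 56.3%, 59.2% and 52.9%. Hmgcs1, which encodes a synthase at the start of the arm, was among those that fell, at -0.63 (edgeR adjusted p = 0.021). It was named after its values were seen, and it did not pass with the trend removed, at 0.22, or with sets summed (-0.59, edgeR adjusted p = 0.11). With the trend removed 2 mevalonate arm genes passed and rose, Mvk (0.58) and Fdps (0.99). Of 8 genes that use the intermediates for other isoprenoids 4 passed, each of them lower: Ggps1 (-0.63), Nus1 (-0.89), Pdss1 (-0.68) and the prenyltransferase subunit gene Pggt1b (-1.24). With the trend removed Pggt1b alone passed, at -0.60, and with counts summed per set Nus1 and Pggt1b passed and Ggps1 and Pdss1 did not (edgeR adjusted p = 0.30 and 0.23).

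Genes that sense and move sterols were read for comparison. Their counts stand beside the same shares over all genes, 24.3% higher and 24.1% lower as measured. With the trend removed these shares were 10.4% and 8.56%. Of 12 regulators of SREBP and of enzyme turnover 3 rose and 5 fell. Srebf1, which encodes SREBP1, rose by 1.28 and its escort gene Scap by 1.04, while the SREBP protease gene Mbtps2 fell, at -1.55, as did March6, a ubiquitin ligase gene whose product acts on squalene epoxidase, at -1.30 (edgeR adjusted p = 0.00051, 5.6e-05, 1.2e-05 and 9e-05). After the trend removal the 3 that passed were lower: Mbtps2 (-0.72), March6 (-0.74) and Srebf2, with Srebf1 at 0.16 and Scap at 0.15. Srebf2, the SREBP2 gene, named after its values were seen, was at 0.49 as measured (edgeR adjusted p = 0.01) and at -0.44 with the removal (edgeR adjusted p = 0.016), so its direction turned, and it did not pass with sets summed (edgeR adjusted p = 0.063). Of 12 tested genes of sterol uptake, transport and export 3 rose and 3 fell: the lipoprotein receptor gene Scarb1 (1.32), the sterol receptor gene Nr1h2 (1.82) and the lysosomal sterol carrier gene Npc2 (0.45) rose, and the sterol transfer gene Stard4 (-0.81) was among those that fell. With counts summed per set Stard4 and Npc2 did not pass (edgeR adjusted p = 0.083 and 0.10). With the trend removed Npc2 (0.41) and Scarb1 (0.55) rose and 1 gene, the lipoprotein receptor gene Lrp8, fell (-1.24). Lrp8, named after its values were seen, did not pass as measured (-0.47, edgeR adjusted p = 0.106) or with sets summed (-0.38, edgeR adjusted p = 0.29). Of 10 SREBP targets in fatty acid synthesis 2 rose and 5 fell. The desaturase genes Scd1 (-1.30) and Scd2 (-1.51), the elongase gene Elovl6 (-0.91) and the acyl-CoA synthetase gene Acsl3 (-0.97) fell. After the trend removal 5 of the 10 passed, each of them lower, among them Scd1 (-2.19), Scd2 (-1.34) and Elovl6 (-0.43), while Acsl3 did not pass (-0.22, edgeR adjusted p = 0.51). With counts summed per set Elovl6 and Acsl3 did not pass (edgeR adjusted p = 0.059 and 0.064). The fatty acid synthase gene Fasn, named after its values were seen, rose by 0.66 as measured and fell, at -0.38, with the trend removed (edgeR adjusted p = 0.00077 and 0.014). These lists were chosen with earlier results of the same data known, and their counts describe them without a test.

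The labelled cell type was checked against its markers. The 8 keratinocyte markers (among them Krt5, Krt14 and Trp63) summed to 17980 to 23950 CPM in distal and 12010 to 16290 CPM in control libraries, as measured. Of the 8, 4 rose and 3 fell, against 24.3% and 24.1% of all tested genes. Transcript GC content was 56.9% to 59.7% in those that rose and 44.2% to 49.2% in those that fell. With the GC and length trend removed 1 rose and 1 fell, against 10.4% and 8.56%. Krt5 (0.23, edgeR adjusted p = 0.19) and Krt14 (0.31, edgeR adjusted p = 0.13) did not pass then. The 10 markers of sebocytes, a lipid-producing cell of the same lineage, summed to 224 to 397 CPM in distal and 195 to 343 CPM in control libraries, and Elovl3 and Plin5 had no count in any library. Fabp5 held most of these counts, 15529 over all libraries, while Scd3, Mc5r, Awat2 and Pparg had 10 to 67 and failed the filter. Fibroblast markers summed to 2.53 to 95.3 CPM in distal and 1.43 to 244 CPM in control libraries, and melanocyte markers to 12.7 to 41.0 and 15.4 to 47.5 CPM in the same order. Mitf held most of the melanocyte counts, 1959, against 107 for Pmel, 10 for Mlana and 0 to 1 for Dct, Tyr, Tyrp1 and Sox10. Immune markers (0 to 1.38 CPM in distal and 0 to 2.05 CPM in control) and endothelial markers (3.87 to 9.51 CPM in distal and 1.89 to 9.87 CPM in control) were near 0. The part of other cells in the members' values was not tested.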

How the data were processed

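Smart-seq2 cDNA and Nextera XT libraries of sorted and cultured epidermal cells were sequenced, per the labels' protocols. The authors deposited a single table of raw counts, whole numbers per gene symbol and library that were not normalised. The submitters' processing notes name HISAT2, featureCounts and mm10/GRCm38. No source used here gives strand or multi-mapping settings, so genes that overlap on opposite strands are uncertain.

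The fit used edgeR 4.0.16 under R 4.3.3 (genes kept by filterByExpr, TMM scaling, robust quasi-likelihood F test over 14 libraries, two-sided, Benjamini-Hochberg over 11757 genes, threshold 0.05). The SE is the absolute log2 fold change over the square root of F. Alternatives were other scalings (median log2 fold change over all genes -0.16 with TMM, -0.18 with DESeq2 size factors and 0.00 with upper quartile), DESeq2 1.42.0, limma-voom (limma 3.58.1), other filters, counts summed per set, thinning to the smallest total, libraries over 4000000 counts, and leaving out libraries and sets. The GC and length removal fitted each library's deviations with natural splines of 4 degrees of freedom, entered as offsets, over the 11654 genes with a GC value. GC content, lengths and positions are from GENCODE M21 (GRCm38). In the removal, GC content and length were medians over each gene's annotated transcripts. One list symbol, Faxdc2, was not matched.

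The members, lists and tests were chosen with earlier results of these data known. Named genes are the 9 members, up to 4 genes with the smallest p in each list, and the 5 genes most like the members; Hmgcs1, Srebf2, Fasn and Lrp8 were added after their values were seen. Some genes that the rule names are not reported here. Within sets, each of 23 library pairs differed beyond counting noise (chi-square over its degrees of freedom, 6.83 to 40.0), so no library was merged. Counts without molecular identifiers understate the error of a single library.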

Additional observations from a re-analysis of the deposited data

How the results depend on the processing

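Over 30 alternatives for each of the 9 members, 230 of 270 values kept their direction and side of the threshold, 39 lost the call and 1 turned: Dhcr7 was at -0.05 in libraries over 4000000 counts (2 distal, 8 control). Among other genes turned values were Erg28 (0.00), Pcmt1 (-0.20) and Ubash3b (-0.01) in that fit, Pmvk (-0.15), Hmgcs1 (0.22), Srebf2 (-0.44), Fasn (-0.38), Iars2 (0.08) and Ubash3b (-0.16) with the GC and length trend removed, Pmvk (-0.14), Hmgcs1 (0.19), Srebf2 (-0.38), Fasn (-0.39), Iars2 (0.18) and Ubash3b (-0.15) with counts also summed per set, Hsd17b7 (0.04) without control set 1, and 9530068E07Rik (0.01) with upper-quartile scaling and -0.17 to 0.00 when libraries were left out in turn.

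The count of genes past the threshold, 5681 (2853 higher, 2828 lower), was 3582 with counts summed per set (1376 lower), 2208 with the trend removed (1210 higher, 998 lower), 314 with both (125 and 189), 1365 in libraries over 4000000 counts (821 and 544), 2300 without control set 1 (1187 and 1113), and 1674 lower without distal set 1. The members, 4 higher and 5 lower, were 4 and 2 with counts summed per set, 1 and 2 with the trend removed, 0 and 0 with both, 0 and 3 in libraries over 4000000 counts, and 0 and 2 without control set 1, which leaves 2 control libraries. At an unadjusted p under 0.05 edgeR gave 1 and 2 members with both, 0 and 4 in libraries over 4000000 counts, and 2 and 5 without control set 1. The share of all genes at that unadjusted threshold was not taken for these fits. The fits on libraries over 4000000 counts and without control set 1 hold fewer libraries. So does the fit without distal set 2, where the members stayed at 4 higher and 5 lower among 4751 genes past the threshold. Causes of the lost calls were not tested. Leaving out single libraries gave 3 to 4 higher and 5 lower.

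No label says that the replicate numbers in the titles pair libraries. Deviations of same-numbered libraries correlated at -0.02 to 0.20, over 0.1 in 1 of 6 pairs. Of 6 distal libraries 2 correlated best with their own number. Such values cannot decide whether libraries were paired, because a weak shared effect could also give low correlations. With the replicate block, members were 4 higher and 5 lower among 5371 genes past the threshold. When every library was thinned to the depth of the shallowest, 5494 genes passed, the members stayed at 4 higher and 5 lower, and Dhcr7, which had 139 to 397 counts per library, was at 0.67 (edgeR adjusted p = 0.017). With the longest transcript as length, levels per kb of Sqle, Lss, Msmo1, Nsdhl, Ebp and Dhcr7 in both regions and of Cyp51 in control cells moved by more than 1 SD.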
